A study of Homo sapiens with 16 samples.

Results

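The immediate early AP-1 and EGR factors are 10 genes, listed by name: FOS, FOSB, JUN, JUNB, JUND, EGR1, EGR2, EGR3, IER2 and ATF3. A gene was measured where the platform annotation gave a probe set to it and to no other gene, which held for 9 of the 10 members among 18132 genes in all. EGR2 had no such probe set and was not analysed here. The 9 members had 30 probe sets, and the one with the highest mean over the 16 arrays stood for its gene, with the others described beside it.

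The arrays were Affymetrix PrimeView arrays of total RNA from Nalm6, an established human B-cell precursor acute lymphoblastic leukaemia line. Control cells and cells labelled CASP1 (overexpressed, active CASP1 per the labels) were each measured untreated and after 24 hours with prednisolone, a synthetic glucocorticoid, on 4 arrays a group. All 4 groups were thus the same parental line. The sources used here do not give the vector of the control cells, the number of clones behind the second line or the prednisolone dose. The series asks whether CASP1 makes leukaemia cells resist glucocorticoids through the glucocorticoid receptor.

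Immediate early genes are switched on within minutes of a growth factor, antigen receptor or stress signal, without new protein synthesis, largely through serum response factor, its ETS partners and CREB, and their RNAs are short-lived. FOS and JUN proteins pair through leucine zippers into AP-1, which binds DNA and drives or restrains genes of growth, survival and inflammation, and the EGR proteins are zinc finger factors induced by antigen receptor and MAP kinase signals. The ligand-bound glucocorticoid receptor is known both to restrain AP-1 at its target genes and to regulate genes directly. A sample taken at 24 hours shows the settled level of such genes and not their first pulse.

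The gene named on the labels went against them: CASP1 signal was lower in cells labelled CASP1, by -2.06 without and -1.93 with prednisolone (limma, adjusted p = 2.3e-08 and 5.1e-08). The sources used here do not place the CASP1 probes on the introduced construct. Whether its RNA was present is therefore not shown, and every direction between the lines follows the label. Replicate 1 stood apart in each group. The deviations of replicate 1 arrays from their group means correlated between groups at 0.191 to 0.507 across genes, against -0.116 to 0.26 for numbers 2 to 4. Of the B-cell precursor markers 12 were measured, and all had mean signals above 3.84, the limit below which the dimmest 30% of genes lie. Of the markers of other cell types, 2 of 8 for T cells, 5 of 5 for NK cells, 3 of 9 for myeloid cells, 1 of 2 for erythroid cells and 1 of 5 for fibroblasts were above it. The only one of them called in a comparison below was ITGAM, a myeloid integrin, at a mean of 3.14 in treated control cells and 3.51 in treated cells labelled CASP1 (0.37, adjusted p = 0.045). The summed myeloid signal per array, as log2, was 6.92 to 7.09 and 7.05 to 7.09 in those groups. The summed B-cell precursor signal per array, as log2, was 15.10 to 15.33 in the untreated groups and treated control cells and 14.70 to 15.17 in treated cells labelled CASP1, and the part of either marker list in the results was not tested. The 23 background control probe sets had mean signals from 2.05 to 9.63, rising with the GC count in their names, which is not given for the members' probes, so the dimmer members cannot be called expressed or silent from their signal. Values are log2 RMA signals throughout, and no gene's level is set against another gene's.

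**Figure D1:**
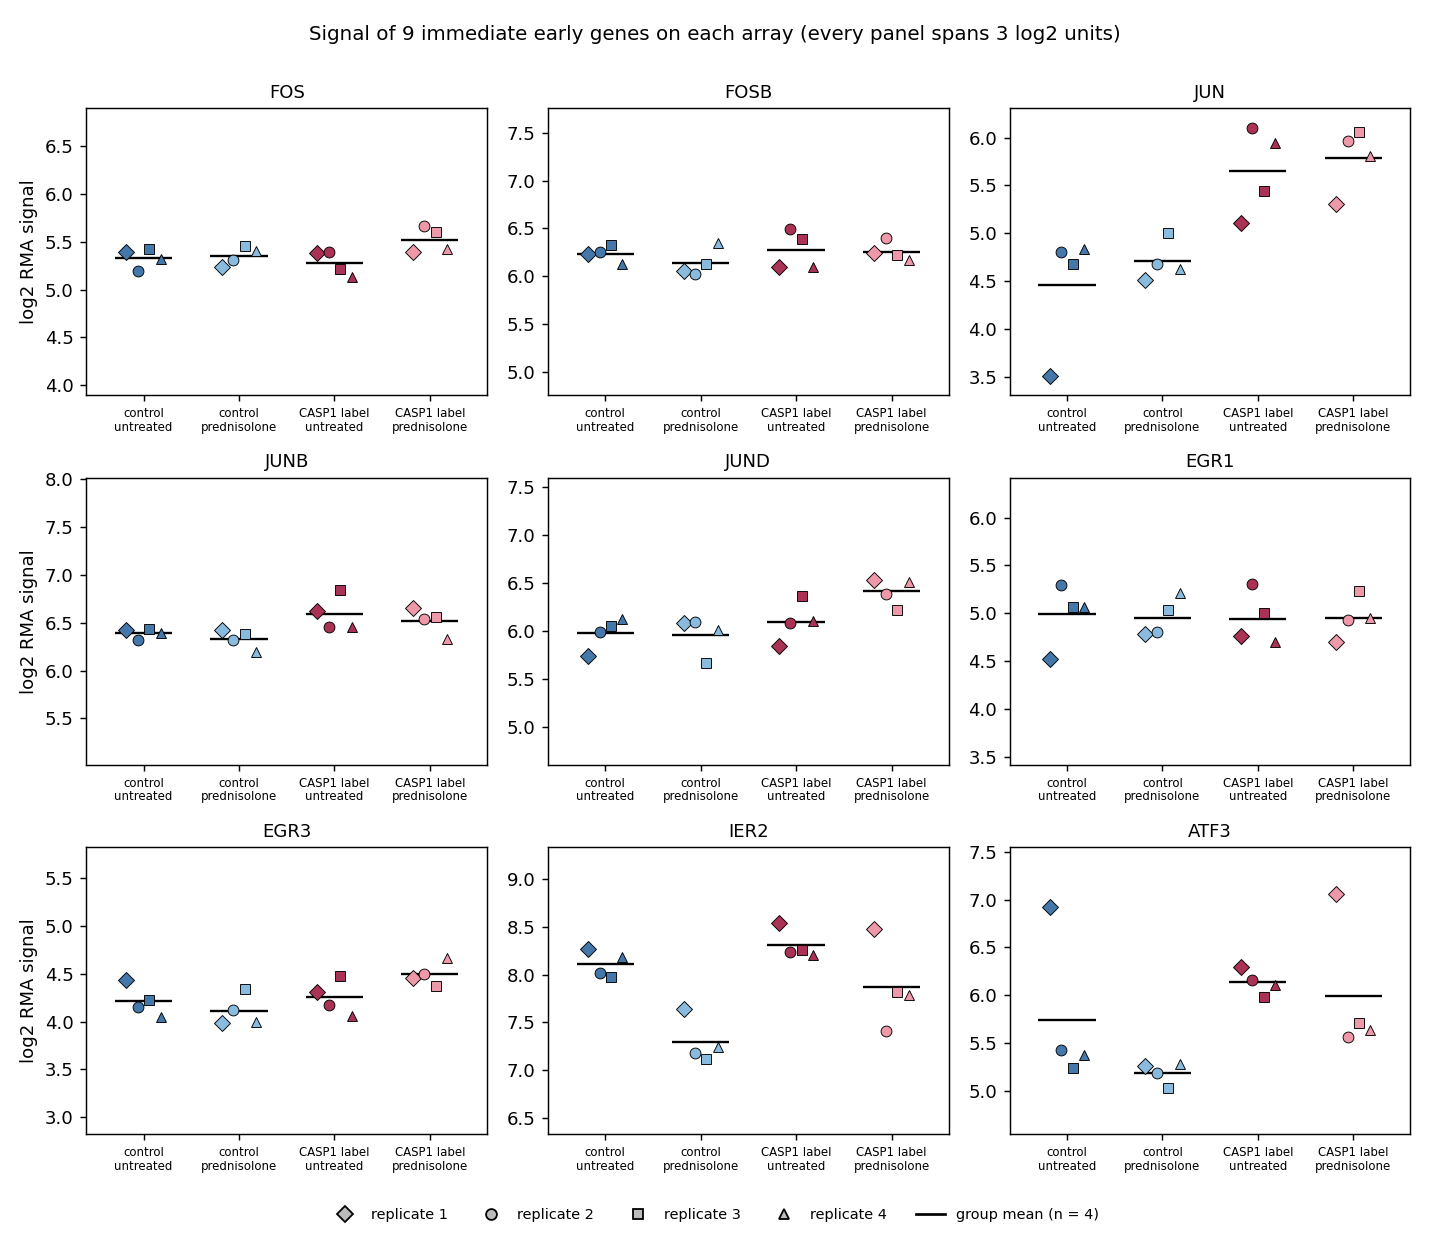
Log2 RMA signal of the 9 measured members on each of the 16 arrays, by group on the horizontal axis, with a symbol for each replicate number and a bar at the group mean. JUN sits higher on all 8 arrays labelled CASP1 than on all 8 control arrays, IER2 sits lower on prednisolone in control cells, and replicate 1 of ATF3 lies far above its group in untreated control cells (6.92) and in treated cells labelled CASP1 (7.06).

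Few of the 9 members responded to prednisolone. In control cells only IER2 passed the test, downwards, and none was higher. Called here means an adjusted p under 0.05 in limma over all 18132 genes, and in control cells that held for 8.43% of all genes downwards and 5.73% upwards, so 1 of 9 is near the background. In cells labelled CASP1 no member was called in either direction, against 2.99% of all genes upwards and 3.35% downwards. At an unadjusted p under 0.05 there were 4 such members, FOS, JUND and EGR3 with a higher and IER2 with a lower mean. The median member difference was -0.06 for control cells and 0.01 for those labelled CASP1, beside -0.015 and 0.018 for all genes.

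Between the lines, every member called was higher in cells labelled CASP1. In untreated cells JUN alone was called, higher in cells labelled CASP1, where 5.87% of all genes were called higher and 8.2% lower. In treated cells JUN, JUND, EGR3 and IER2 were called higher, 4 of 9 members against 7.88% of all genes, and none was lower, against 8.52%. The member median was 0.12 in untreated and 0.39 in treated cells, beside 0.007 and 0.045 for all genes. With 1 treated control array left out the 4 calls became 2 in 3 cases: without replicate 2 or replicate 4, EGR3 and IER2 were lost, and without replicate 3, JUND and IER2. The interaction, taken as the response of cells labelled CASP1 less the response of control cells, was called for no member, against 0.524% of all genes upwards and 0.364% downwards. At an unadjusted p under 0.05 it held 1 member, EGR3. In bulk RNA a change in the share of cells that express a gene and a change in its RNA per cell cannot be told apart.

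**Figure D2:**
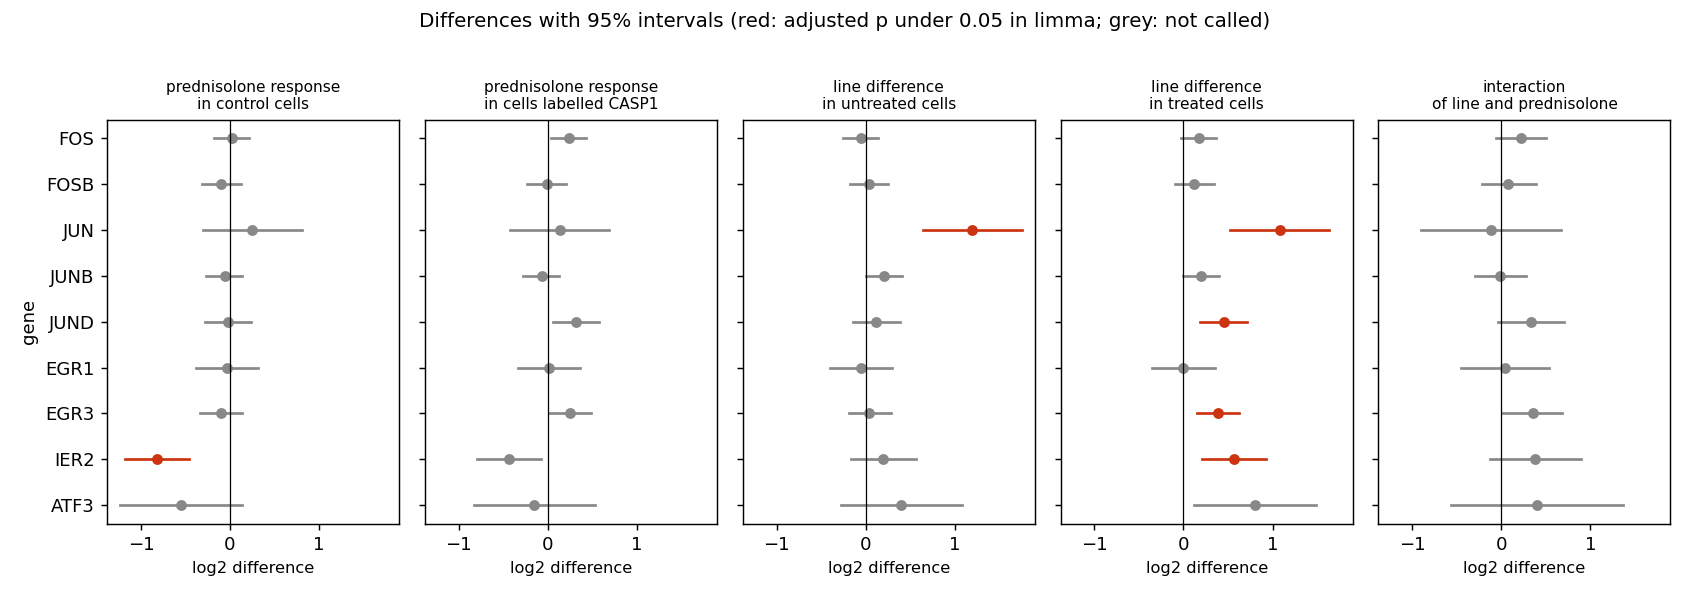
Log2 difference of each member with its 95% interval in the 5 comparisons, from limma over 4 arrays a group, with called values in red and the others in grey. Called values are IER2 with prednisolone in control cells (-0.82), JUN between the untreated lines (1.19), and JUN (1.08), JUND (0.45), EGR3 (0.39) and IER2 (0.57) between the treated lines.

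Among the JUN family, JUN carried the clearest difference. JUN is the principal transactivating partner in AP-1 and lies on chromosome 1 at 58780791 to 58784047 (GRCh38.p14). In untreated control cells its signal on replicates 1 to 4 was 3.51, 4.80, 4.68 and 4.83, a mean of 4.45 ± 0.63 (SD, n = 4). In untreated cells labelled CASP1 it was 5.11, 6.10, 5.44 and 5.94, a mean of 5.65 ± 0.46. Replicate 1 was the lowest array of both groups, and the groups did not overlap.

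With prednisolone JUN signal was 4.51, 4.68, 5.0 and 4.63 in control cells, a mean of 4.71 ± 0.21. In treated cells labelled CASP1 it was 5.30, 5.96, 6.06 and 5.81, a mean of 5.78 ± 0.34. The lowest of the 8 arrays labelled CASP1, at 5.11, was above the highest of the 8 control arrays, at 5.0. The line difference was 1.19 (SE 0.26, 95% interval 0.64 to 1.75) in untreated cells, a 2.29-fold higher signal with adjusted p = 0.0048 in limma. In treated cells it was 1.08 (SE 0.26, 0.52 to 1.63), or 2.11-fold, with adjusted p = 0.0086. Within a line the means followed each other closely: prednisolone moved JUN by 0.25 in control cells (95% interval -0.30 to 0.81, adjusted p = 0.68) and by 0.14 in cells labelled CASP1 (-0.42 to 0.69, adjusted p = 0.87). The interaction was -0.12, with an interval from -0.90 to 0.67.

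The other JUN probe sets gave the same direction between the lines. Fitted over all 44988 probe sets named for 1 gene, all 4 were called higher in cells labelled CASP1, by 0.81 to 1.19 in untreated cells (adjusted p = 0.0031 to 0.022) and by 0.85 to 1.11 in treated cells (adjusted p = 0.0029 to 0.0096). None of the 4 was called for prednisolone in either line. They disagreed on replicate 1. On the brightest, replicate 1 lay below the mean of replicates 2 to 4 in every group, by -1.26, -0.27, -0.72 and -0.64 in untreated control, treated control, untreated CASP1-labelled and treated CASP1-labelled cells. On the probe set 11718394_at it lay above that mean by 0.15, 0.62, 0.25 and 1.16 in the same order. Names ending in _s_at or _x_at mark probes that can match other transcripts, and 11718394_at is the JUN probe set without such a mark.

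**Figure D3:**
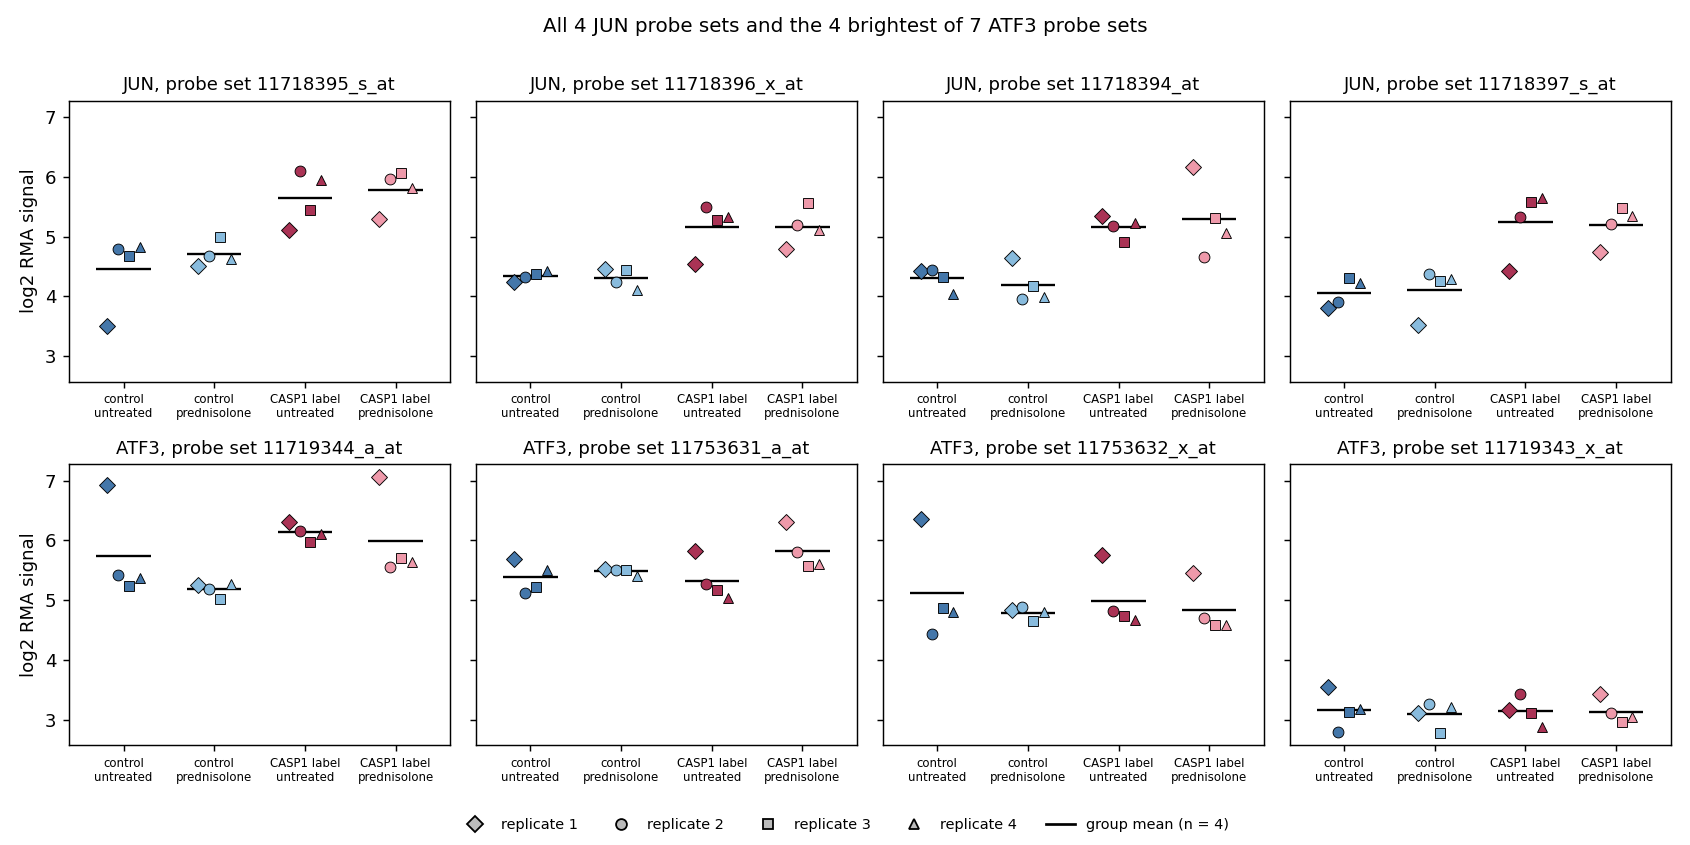
Log2 RMA signal on each array for all 4 JUN probe sets (upper) and the 4 brightest of 7 ATF3 probe sets (lower), by group, with a symbol for each replicate number and a bar at the mean of 4 arrays. All 4 JUN probe sets have higher means in cells labelled CASP1, while replicate 1 is lowest on the brightest JUN probe set and highest on 3 of the ATF3 probe sets in most groups.

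JUND, a JUN protein with a steadier level that often restrains growth, lies on chromosome 19 at 18279694 to 18281622 (GRCh38.p14). Its signal was 5.74, 5.99, 6.05 and 6.12 in untreated control cells and 6.08, 6.09, 5.67 and 6.01 in treated control cells. In cells labelled CASP1 it was 5.84, 6.08, 6.36 and 6.10 untreated and 6.53, 6.39, 6.22 and 6.51 with prednisolone. The treated lines did not overlap, while the other 3 pairs compared did. The means were 5.98 ± 0.17, 5.96 ± 0.2, 6.10 ± 0.21 and 6.41 ± 0.14 in that order. JUND was 1.37-fold higher in treated cells labelled CASP1 than in treated control cells (0.45, SE 0.12, 95% interval 0.19 to 0.71, adjusted p = 0.017). Its prednisolone response came to -0.02 in control cells (adjusted p = 0.98) and 0.32 in cells labelled CASP1 (95% interval 0.06 to 0.58, adjusted p = 0.16), and the interaction of 0.33 was not called (adjusted p = 0.55). Without replicate 3 of treated control cells, the lowest JUND array at 5.67, the difference between the treated lines was 0.35 with adjusted p = 0.068. JUND has 1 probe set, 11757969_x_at, whose name carries the mark of possible matches to other transcripts.

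JUNB, which competes with JUN for partners and often opposes it, ranged from 6.19 to 6.84 over the 16 arrays. Its group means were 6.39 and 6.33 in untreated and treated control cells and 6.60 and 6.52 in cells labelled CASP1. The untreated lines did not overlap, but the difference of 0.21 did not pass the test (95% interval -0.00 to 0.41, adjusted p = 0.21), and that of 0.20 between the treated lines did not either (adjusted p = 0.2).

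The upstream sequences of JUN, JUND and ATF3 are shown because these were the members with a match to TGACNTCA, the site bound by JUN paired with ATF proteins, within 250 bases before a RefSeq start (GRCh38.p14, 9 members with an entry used here). EGR3 was not among these 9 members, and its upstream sequence was not searched. The motif was searched on both strands, and it includes the cyclic AMP site TGACGTCA, which reads the same on both. It occurred on either strand in 6.87% of 35114 human promoters of that length, and TGACGTCA in 1.65%. Each sequence runs 5′ to 3′ on the gene's strand and ends at the base before the start, with the match in capitals. JUN is at chr1:58784048-58784297 on the minus strand, JUND at chr19:18281623-18281872 on the minus strand, and ATF3, at the first of its 2 listed starts, at chr1:212565157-212565406 on the plus strand.
JUN: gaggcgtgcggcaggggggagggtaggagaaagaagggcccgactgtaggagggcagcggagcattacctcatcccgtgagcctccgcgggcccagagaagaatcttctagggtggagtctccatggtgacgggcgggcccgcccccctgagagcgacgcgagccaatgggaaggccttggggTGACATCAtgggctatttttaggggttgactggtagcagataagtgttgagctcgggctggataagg
JUND: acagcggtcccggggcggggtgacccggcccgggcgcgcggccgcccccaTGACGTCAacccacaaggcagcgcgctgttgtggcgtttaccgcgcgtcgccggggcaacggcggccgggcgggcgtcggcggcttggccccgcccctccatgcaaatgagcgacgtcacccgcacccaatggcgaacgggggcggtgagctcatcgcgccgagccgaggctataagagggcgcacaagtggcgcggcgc
ATF3: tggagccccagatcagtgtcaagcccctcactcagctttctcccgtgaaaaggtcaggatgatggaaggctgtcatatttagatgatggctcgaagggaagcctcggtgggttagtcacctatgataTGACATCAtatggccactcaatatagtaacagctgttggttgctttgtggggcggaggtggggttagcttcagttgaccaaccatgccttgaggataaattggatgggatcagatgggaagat
On the gene's strand the match is TGACATCA, starting 67 bases before the start in JUN and 123 bases in ATF3, and TGACGTCA, 200 bases before the start, in JUND. The AP-1 site TGANTCA, in 6.57% of promoters, was found in no window of the 9 members searched. The CArG box of serum response factor, in 1.16%, was found before EGR1 at 105 and 83 bases and before 1 of 3 starts of EGR2 at 71 bases. The EGR site GCGNGGGCG, in 8.41%, was found before EGR1 at 198 bases, and the glucocorticoid receptor half-site AGAACA, in 12.4%, before FOSB at 142 bases. All of these were searched on both strands. A match describes letters only, and FOS, JUNB and IER2 had a match to none of these motifs in their windows.

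The FOS proteins cannot pair with each other and need a JUN partner. FOS, the classic serum-induced gene, ranged from 5.13 to 5.66 over all 16 arrays, and FOSB, its close relative, from 6.02 to 6.49. In untreated cells labelled CASP1 FOS was 5.38, 5.39, 5.22 and 5.13, and with prednisolone it was 5.39, 5.66, 5.60 and 5.42. That difference of 0.24 was not called (95% interval 0.04 to 0.43, adjusted p = 0.16 in limma). Without the 4 replicate 1 arrays it was 0.32 with adjusted p = 0.044. In control cells the FOS response was 0.02, with an interval from -0.18 to 0.21. FOSB differences lay between -0.10 and 0.12 in the 4 comparisons of groups, none of them called. The FOS result depended on the probe set, since the probe set 11734659_a_at was higher by 0.90 in treated cells labelled CASP1 (adjusted p = 0.0068 over all probe sets), and the probe set 11749291_a_at by 0.49 in untreated ones (adjusted p = 0.034). The probe set 11734659_a_at was dim, with a mean signal of 3.47, below the limit of 3.84. It read 2.34 on replicate 1 of treated control cells. Without the 4 replicate 1 arrays its difference between the treated lines was 0.59 (adjusted p = 0.0091 over all probe sets). With the mean of its 4 probe sets, this dim one included, FOS was higher by 0.44 in treated cells labelled CASP1 (adjusted p = 0.0092).

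EGR1, the EGR factor that antigen receptor signals induce most readily, ranged from 4.52 to 5.31 and its group means from 4.94 to 4.99. No difference of EGR1 was called, and the largest of the 4 comparisons of groups was -0.05, with an interval from -0.40 to 0.30. On the probe set 11754334_s_at EGR1 was lower by -0.51 in untreated cells labelled CASP1 (adjusted p = 0.038 over all probe sets).

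EGR3, a factor that acts with EGR2 in lymphocyte selection and tolerance, gave 4.43, 4.15, 4.22 and 4.05 in untreated control cells and 3.98, 4.12, 4.34 and 4.0 with prednisolone. In cells labelled CASP1 it gave 4.31, 4.17, 4.48 and 4.06 untreated and 4.46, 4.50, 4.37 and 4.66 with prednisolone. The treated lines did not overlap, with the lowest array labelled CASP1 at 4.37 and the highest control array at 4.34. The difference was 0.39 (SE 0.11, 95% interval 0.15 to 0.62), 1.31-fold, with adjusted p = 0.023, and the interaction was 0.35 (adjusted p = 0.46). The call was lost without any of replicates 1, 2 or 4 of treated control cells or replicate 4 of treated cells labelled CASP1 (0.33 to 0.39, adjusted p = 0.051 to 0.073). The other 3 EGR3 probe sets gave 0.03, 0.05 and 0.21, none called, and the mean over its probe sets gave 0.17 with adjusted p = 0.14.

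IER2, a small nuclear protein induced early by growth factors, lies on chromosome 19 at 13150411 to 13154911 (GRCh38.p14) and has 1 probe set, 11758043_s_at, also with such a mark. In control cells its signal was 8.27, 8.02, 7.98 and 8.18 untreated, a mean of 8.11 ± 0.14 (SD, n = 4). With prednisolone it was 7.64, 7.18, 7.12 and 7.24, a mean of 7.30 ± 0.23. Every treated array lay below every untreated one. IER2 fell by 0.82 on the log2 scale (SE 0.17, 95% interval -1.18 to -0.46), 1.76-fold, with adjusted p = 0.0026.

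In cells labelled CASP1 IER2 signal was 8.54, 8.24, 8.26 and 8.20 untreated and 8.48, 7.41, 7.82 and 7.79 with prednisolone. Replicate 1 of the treated cells lay among the untreated arrays, and the other 3 lay below them. The difference was -0.44 (95% interval -0.80 to -0.08, adjusted p = 0.16), and without that 1 array it was -0.64 with adjusted p = 0.0058. Without the replicate 1 array of all 4 groups it was -0.56 with adjusted p = 0.0021. The interaction was 0.38 (95% interval -0.13 to 0.89, adjusted p = 0.66), so a difference between the lines in the IER2 response was not shown. Between the treated lines IER2 was higher in cells labelled CASP1 by 0.57 (SE 0.17, 0.21 to 0.93), 1.49-fold, with adjusted p = 0.027, although the groups overlapped. That call was lost when only the 2 treated groups were fitted (adjusted p = 0.098), and without replicate 2, 3 or 4 of treated control cells or replicate 1 of treated cells labelled CASP1 (0.37 to 0.56, adjusted p = 0.064 to 0.082). By mean, the order of IER2 was treated control cells (7.30), treated cells labelled CASP1 (7.87), untreated control cells (8.11) and untreated cells labelled CASP1 (8.31), and the last pair did not differ beyond its spread (0.20, adjusted p = 0.56).

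ATF3, a stress-induced factor that pairs with JUN proteins and often represses, lies on chromosome 1 at 212565407 to 212620777 (GRCh38.p14). In control cells its signal was 6.92, 5.43, 5.24 and 5.37 untreated and 5.26, 5.19, 5.03 and 5.28 with prednisolone. In cells labelled CASP1 it was 6.30, 6.16, 5.98 and 6.11 untreated and 7.06, 5.56, 5.71 and 5.64 with prednisolone. Replicate 1 of untreated control cells and of treated cells labelled CASP1 stood 1.58 and 1.43 above the mean of the other 3 arrays of the group, and the 2 other replicate 1 arrays 0.10 and 0.22. The group SDs were 0.79 and 0.72 where replicate 1 was high and 0.12 and 0.13 elsewhere.

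No ATF3 difference was called in the fit of 4 group means over all 16 arrays. Between the treated lines the groups did not overlap, at 0.80 (SE 0.32, 95% interval 0.12 to 1.49, adjusted p = 0.1), and between the untreated lines the difference was 0.40 (-0.28 to 1.08, adjusted p = 0.52). Without the 4 replicate 1 arrays, ATF3 was higher in cells labelled CASP1 by 0.74 untreated (adjusted p = 4e-05) and by 0.47 with prednisolone (adjusted p = 0.0013), and lower with prednisolone in cells labelled CASP1 by -0.45 (adjusted p = 0.0036). Without replicate 1 of untreated control cells alone, the untreated difference was 0.79 with adjusted p = 0.046. These values rest on 1 probe set. None of the 7 ATF3 probe sets was called in any comparison of the fit over all 16 arrays. Without the 4 replicate 1 arrays, a fit chosen after seeing the data, the other 6 gave line differences from -0.12 to 0.11 untreated and from -0.16 to 0.19 with prednisolone, none called (lowest adjusted p = 0.25). Of these 6 only 11753631_a_at and 11753632_x_at had mean signals above 3.84 (5.51 and 4.93). The rest were dim, at 2.84 to 3.14, which limits what they can show. In the fit without replicate 1 the probe sets disagreed on prednisolone in cells labelled CASP1. There the probe set 11753631_a_at was called higher by 0.50 (adjusted p = 0.0058 over all probe sets), against the fall on the brightest. With the mean of the 7 over all arrays, the dim ones included, the line differences were 0.02 untreated and 0.24 with prednisolone (adjusted p = 0.96 and 0.34), and the prednisolone difference in cells labelled CASP1 turned from -0.15 to 0.07 (adjusted p = 0.89 for both).

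Other genes of the integrated stress response, the pathway in which ATF4 induces ATF3, were high on the same arrays. Replicate 1 of untreated control cells exceeded the mean of the other 3 arrays by 1.86 for SESN2, 1.40 for TRIB3, 1.31 for CHAC1, 0.96 for DDIT3 and 0.55 for ATF4. In treated cells labelled CASP1 the same genes gave 0.84, 1.19, 0.59, 0.77 and 0.36. Of 11 such genes 8 were above 0 in the first group and 9 in the second, beside 48.9% and 51.3% of all genes. Their medians were 0.67 and 0.38, beside -0.01 and 0.01 for all genes. In treated control cells and untreated cells labelled CASP1, 5 of 11 were above 0 in each, beside 46.7% and 55% of all genes. Of 9 heat shock genes 2 to 5 were above 0 in the 4 groups, and HSPA1B, an inducible chaperone, was lower on replicate 1 in all 4 groups (-1.47, -1.27, -1.65 and -0.98). The 3′ minus 5′ signal of GAPDH, a sign of RNA integrity, was 0.37 to 0.49 on replicate 1 arrays and 0.30 to 0.39 on the others, and that of ACTB 1.16 to 1.22 and 0.97 to 1.37. In the tests, 3 of the 11 stress genes fell with prednisolone in control cells, against 8.43% of all genes. They were TRIB3, ASNS and CEBPG (-0.92, -0.62 and -0.47, adjusted p = 0.032, 0.0067 and 0.014). With prednisolone none was called in cells labelled CASP1. Between the lines XBP1 alone was called, lower in cells labelled CASP1 in both treatments (-0.55 and -0.58, adjusted p = 0.00051 and 0.00028). Of all genes 8.2% and 8.52% were lower there, so 1 of 11 is near that share. TRIB3 was at -0.57 (adjusted p = 0.091) without replicate 1 of untreated control cells, and also lost its call without any 1 of the 4 treated control arrays (-0.91 to -0.93, adjusted p = 0.058 to 0.077). With the mean over probe sets CEBPG was at -0.20 (adjusted p = 0.42). The part of stress gene levels and RNA integrity in the ATF3 and IER2 values was not tested.

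**Figure D4:**
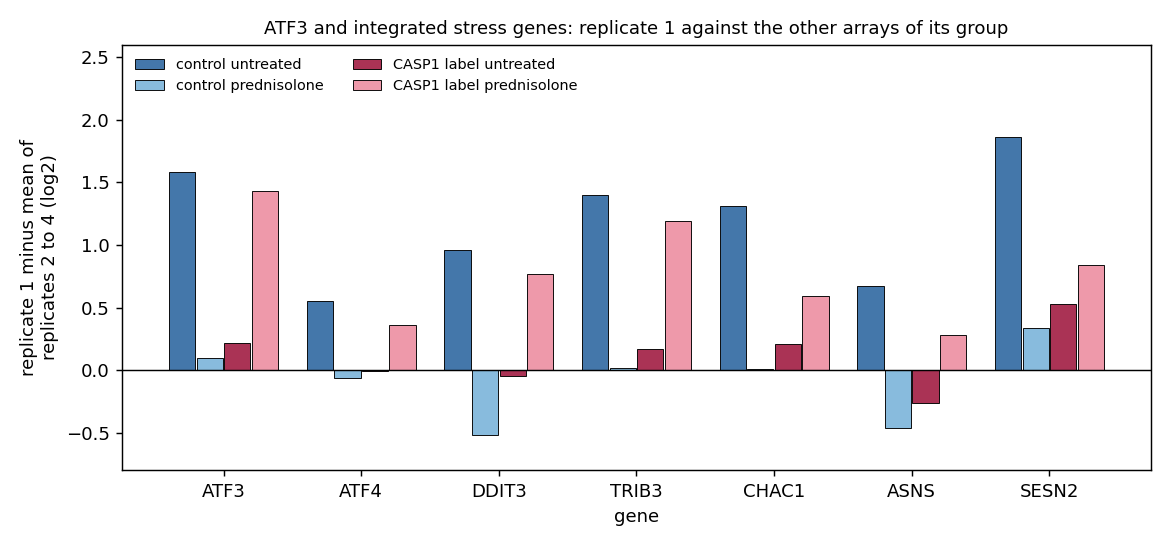
Replicate 1 minus the mean of replicates 2 to 4 (log2) for ATF3 and 6 of the 11 integrated stress genes, with 1 bar for each group. Of all 11, 8 were above 0 in untreated control cells and 9 in treated cells labelled CASP1, and those not above 0 are not drawn. The bars of untreated control cells (1.58 for ATF3) and of treated cells labelled CASP1 (1.43) are above 0 for all 7 genes, while those of the other groups lie between -0.52 and 0.53.

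Among 13 other measured AP-1 family genes, 2 rose and 1 fell with prednisolone in control cells, against 5.73% and 8.43% of all genes. BATF3, a partner of JUN in lymphoid and dendritic cells, fell (-0.80, adjusted p = 0.0034), and JDP2, a JUN-dimerizing repressor, and ATF7 rose by 0.62 and 0.60 (adjusted p = 0.033 and 0.014). In cells labelled CASP1 none of the 13 was called with prednisolone, against 2.99% of all genes upwards and 3.35% downwards. Between the lines only MAFF, a small MAF protein, was called, higher by 0.49 in treated cells labelled CASP1 (adjusted p = 0.031). Of all genes 7.88% were higher there, so 1 of 13 is near that share. Of EGR4, WT1 and the EGR co-repressors NAB1 and NAB2, NAB1 fell with prednisolone in both lines (-0.60 and -0.61, adjusted p = 0.015 and 0.025), and WT1 was lower in treated cells labelled CASP1 (-1.12, adjusted p = 0.0098). With the mean over probe sets ATF7 was at 0.21 (adjusted p = 0.084) and JDP2 at 0.34 (adjusted p = 0.24). Single arrays decided several of these calls: ATF7 was lost without replicate 2 or 3 of treated control cells (both 0.54, adjusted p = 0.054 and 0.056), JDP2 without any of 6 control arrays (0.53 to 0.63, adjusted p = 0.066 to 0.11), and MAFF without replicate 1 or 4 of either treated group (0.41 to 0.45, adjusted p = 0.08 to 0.1). NAB1 in cells labelled CASP1 was lost without replicate 2, 3 or 4 of the untreated group (-0.58 to -0.60, adjusted p = 0.066 to 0.079).

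Upstream of these genes, serum response factor and its partners (6 measured) were not called with prednisolone in either line. Between the untreated lines 1 was higher and 1 lower in cells labelled CASP1, and between the treated lines 1 and 2. The shares of all genes were 5.87%, 8.2%, 7.88% and 8.52% in that order. MRTFB, an actin-regulated coactivator, was lower in both (-0.85 and -0.97, adjusted p = 0.00031 and 7.8e-05), while ELK4, higher in untreated cells (0.34, adjusted p = 0.035), lost its call without any 1 of 5 arrays (0.26 to 0.35, adjusted p = 0.068 to 0.12). MRTFA was higher by 0.86 (adjusted p = 0.0018) and SRF itself lower by -0.35 (adjusted p = 0.0059) in treated cells. With the mean over a gene's probe sets, neither MRTFB (-0.23, adjusted p = 0.14) nor SRF (-0.21, adjusted p = 0.06) was called between the treated lines. Of 18 MAP kinase cascade genes 2 rose and 4 fell with prednisolone in control cells, and 0 and 1 in cells labelled CASP1. For all genes these shares were 5.73%, 8.43%, 2.99% and 3.35%. Between the lines 3 were higher and 1 lower in untreated cells labelled CASP1, against 5.87% and 8.2% of all genes. In treated cells labelled CASP1 the counts were 1 and 4, against 7.88% and 8.52%. Of the 3, MAP2K1, MAP2K3 and RPS6KA1, none was called without replicate 4 of untreated control cells (adjusted p = 0.053, 0.082 and 0.053), and 1 was called without replicate 1 or 2 of either untreated group. The 4 that fell in control cells were 2 without replicate 1 of untreated or replicate 3 or 4 of treated control cells, and the 1 in cells labelled CASP1, RPS6KA5, was lost without any 1 of 6 arrays. MAP2K6, an activator of p38, had a called interaction of 0.98 (adjusted p = 0.049): it fell by 0.94 in control cells and was lower by -1.49 in untreated cells labelled CASP1 (adjusted p = 0.00039 and 6.7e-06). The interaction was lost without any 1 of 15 of the 16 arrays (0.87 to 1.05, adjusted p = 0.053 to 0.12), the exception being replicate 1 of treated cells labelled CASP1.

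A wider list held 44 other measured immediate early genes, mostly from outside the AP-1 and EGR families. With prednisolone 12 rose and 8 fell in control cells, and 9 and 4 in cells labelled CASP1, where the shares of all genes were 5.73%, 8.43%, 2.99% and 3.35%. The median differences were 0.11 and 0.15. KLF2, a quiescence factor of lymphocytes, rose by 4.41 and 3.04, CD69, an early activation antigen, by 2.77 and 2.31, and NFKBIA, which holds NF-kappaB in the cytoplasm, by 1.56 and 1.44 (largest adjusted p = 0.0079). DUSP1, a MAP kinase phosphatase often induced by glucocorticoids and named here after its values were seen, fell by 1.14 and by 0.50 (adjusted p = 5.8e-07 and 0.007). Between the lines 8 were higher and 3 lower in untreated cells labelled CASP1, and 10 and 3 in treated ones, where the shares of all genes were 5.87%, 8.2%, 7.88% and 8.52%. In treated cells 5 were higher without replicate 4 of treated control cells, and 1 was lower without replicate 3 of that group. KLF10, a TGF-beta-induced factor, was higher by 2.18 and 1.94, IER5, a relative of IER2, by 1.23 and 1.21, and DUSP6, which switches off ERK, was lower by -0.97 and -1.31 (largest adjusted p = 0.0013).

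The genes whose signal followed each member most closely over the 16 arrays were found for the 3 members that ranged over more than 1 log2 unit, as a description. For JUN they were CDKN1B, STAMBP and KBTBD3, with Pearson r of 0.915, 0.913 and 0.912, and 0.928, 0.921 and 0.873 over the 12 arrays without replicate 1. For IER2 they were EEF2K, MCUR1 and PIK3C2B, with r of 0.967, 0.962 and 0.961, and 0.964, 0.956 and 0.948 without replicate 1. For ATF3 they were CARS1, GPKOW and UBE2C, with r of 0.942, 0.920 and 0.914, and 0.880, 0.814 and 0.891. Between members, the highest r over 16 arrays was 0.76, for IER2 and ATF3, with 0.71 over 12. Over 12 arrays it was 0.79, for JUN and ATF3, with 0.02 over 16. Each r uses the brightest probe set of a gene, and the JUN probe sets disagreed on replicate 1. The points share the 4 groups and the array normalization, so r carries the group differences.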

How the data were processed

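Total RNA of 16 Nalm6 samples was measured on PrimeView arrays. The table deposited by the authors holds log2 signals of probe sets, computed by RMA as the submitters' processing notes name it. The sources used here do not give its software, version or probe set definition. Because RMA equalizes the arrays, total RNA per cell was not measured. No further normalization was made. Of 49395 probe sets, 44988 named 1 gene, 1832 several and 2473 none, and 102 were controls, per the platform annotation; the brightest probe set by mean stood for each of 18132 genes. Symbols were compared with RefSeq by Entrez identifier (99.94% matched).

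Each gene was fitted with limma 3.58.1 (R 4.3.3) as 4 group means over all 16 arrays (12 residual degrees of freedom), with the moderated two-sided test and Benjamini-Hochberg adjustment over all genes in each comparison. Every adjusted p is from limma. The code was tested on simulated data. No label ties the arrays of a group to separate cultures. The p-values thus cover just the spread between these samples, which may be technical, and the number of arrays limits the precision.

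The members, gene lists and tests were chosen with earlier results of these data known. All members are named, with every array's value where a member was called or spread widely, and of each other list up to 4 called genes with the largest difference. Likeness names the 3 genes with the highest r.

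Replicate numbers recur in each group. Of 24 same-numbered pairs between groups 15 correlated above 0.1 in their deviations from the group means, and all 4 pairs did so only between the untreated lines (0.147 to 0.434), where a replicate block changed no member's call. Elsewhere the numbers were not taken to pair the arrays. The alternatives were quantile normalization, centring on the 75th percentile, a filter on the dimmest 30% of genes, the mean over a gene's probe sets, eBayes with trend and robust, a fit of only the groups compared, a replicate block, leaving out each array, and leaving out the 4 replicate 1 arrays. A fit of the ATF3 probe sets without replicate 1 was added after seeing the data. EGR2 was not analysed here.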

Additional observations from a re-analysis of the deposited data

Results flagged for a closer look

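In groups of 4 arrays, 1 array of JUN and 2 of ATF3 lay far from the other 3, out of 36 groups examined, of which chance would set apart about 1 in 20. JUN signal, on its brightest probe set, was 3.51 on replicate 1 of untreated control cells, where the other arrays were at 4.68 to 4.83. The other JUN probe sets did not set this array far apart. It read 4.42 on 11718394_at, 4.24 on 11718396_x_at and 3.81 on 11718397_s_at. The other arrays of the group were at 4.04 to 4.45, 4.33 to 4.43 and 3.90 to 4.31 in that order. ATF3 signal was 6.92 on that same array, where the others were at 5.24 to 5.43. ATF3 was 7.06 on replicate 1 of treated cells labelled CASP1, where the others were at 5.56 to 5.71.

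An interaction of line and prednisolone was called for 2 genes named beside the members. They were 1 of 44 other immediate early genes, downwards, and 1 of 18 MAP kinase cascade genes, upwards. Of all genes 0.364% were called downwards and 0.524% upwards. The KLF2 interaction was -1.36 (adjusted p = 0.038 in limma), and the MAP2K6 interaction was 0.98 (adjusted p = 0.049). The KLF2 call was lost without any 1 of 10 of the 16 arrays (-1.24 to -1.42, adjusted p = 0.057 to 0.094) and the MAP2K6 call without any 1 of 15 (adjusted p = 0.053 to 0.12). No member had a called interaction.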

How the results depend on the processing

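The 2 JUN line differences and the fall of IER2 in control cells kept their direction and their call under all alternatives run. Over the 12 member values called in the full fit or in an alternative, 170 of 192 settings gave the same verdict, 11 lost the call, 10 gained one and 1 turned the direction: the ATF3 prednisolone difference in cells labelled CASP1, at 0.07 with the mean over probe sets. Without the replicate 1 arrays, added after seeing the data, 6 line differences of ATF3 probe sets other than the brightest turned, to 0.11, 0.04 and 0.05 untreated and -0.05, -0.02 and -0.16 treated, none called. Most of these probe sets were dim. Another 33 member values were called in no setting, and 18 of them differed in sign in some setting. Of 1117 settings for other named genes, 136 lost the call and none turned.

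Without the 4 replicate 1 arrays the prednisolone comparison of control cells called 3969 genes (2568 with all arrays), 2161 in cells labelled CASP1 (1150), 3876 between the untreated lines (2552) and 727 in the interaction (161). Members called were then 3 for prednisolone in cells labelled CASP1 (0 with all arrays), 2 between the untreated lines (1) and 5 between the treated lines (4). Calls over all genes rose as well in the first 2 of these comparisons. The 5 were not set against the share of all genes called in that fit. A fit of only the groups compared called 688 genes for prednisolone in cells labelled CASP1. The replicate block called 289 genes in the interaction and 1 member, IER2, for prednisolone in cells labelled CASP1 (adjusted p = 0.022), and it called ATF3 between the treated lines (adjusted p = 0.02). Of 48 choices of an array and another group, the best match had the same number in 24. For these changes the cause was not tested, and fewer arrays or groups alter the spread that limma estimates.

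Leaving out 1 array at a time gave 2035 to 2556 genes for prednisolone in control cells, 791 to 1292 in cells labelled CASP1, 1985 to 2369 between the untreated lines, 2244 to 2877 between the treated lines and 96 to 268 in the interaction. Members called were 1 to 1, 0 to 1, 1 to 2, 2 to 4 and 0 to 0 in that order. Quantile normalization and 75th percentile centring changed no member's call. Dim members near background limit what their signal can show.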

Other observations

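Of 9 measured lymphocyte genes ascribed to EGR factors, a list written from general knowledge, 1 rose and 2 fell with prednisolone in control cells. The counts in cells labelled CASP1 were 1 and 1. For all genes the shares were 5.73%, 8.43%, 2.99% and 3.35% in that order. ID3 is an inhibitor of E proteins that EGR factors induce in developing lymphocytes. It fell by 2.04 and by 1.43 (limma, adjusted p = 1.2e-07 and 2.1e-05). EGR1 and EGR3 were not called in either line, and EGR2 was not measured. The part of EGR factors in the ID3 values was not tested. NFATC1, a calcium-regulated factor, rose by 0.61 and 0.87 (adjusted p = 0.014 and 0.0022). Between the lines none of the 9 was called untreated and 3 were higher in treated cells labelled CASP1, CDKN1A, CD44 and TNF, where 7.88% of all genes were. CD44 and TNF were not called without replicate 1 of treated cells labelled CASP1 (adjusted p = 0.077 and 0.052), without replicate 3 of that group (both 0.055) or with only the treated groups fitted (both 0.054). CDKN1A, the cell cycle inhibitor p21, was 2.98-fold higher there (adjusted p = 0.00044), after a fall of -1.03 with prednisolone in control cells (adjusted p = 0.011).

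Of 9 heat shock genes 3 fell with prednisolone in control cells and 1 in the other line, against 8.43% and 3.35% of all genes. In control cells HSPB1 lost its call without any 1 of 4 arrays (-0.51 to -0.60, adjusted p = 0.059 to 0.08). DNAJA1 lost it there with the mean over its probe sets (-0.22, adjusted p = 0.11). In the other line the 1 call, DNAJA1, was lost without replicate 4 of the untreated group (-0.32, adjusted p = 0.05). For untreated cells labelled CASP1, 4 of the 9 were lower, where 8.2% of all genes were. Of the 4, only HSPE1 kept its call without replicate 1 of that group (DNAJA1, HSP90AA1 and HSPH1 at adjusted p = 0.052, 0.053 and 0.15), and 2 were called without replicate 2 of either untreated group or replicate 3 or 4 of untreated control cells. The heat shock genes moved between the treated lines in both directions, with 2 of 9 higher and 1 lower, against 7.88% and 8.52% of all genes. HSPA1B was 4-fold higher in treated cells labelled CASP1 (2.0, SE 0.41, adjusted p = 0.0023) and HSPB1 was higher by 1.0 (adjusted p = 0.00064), while DNAJA1, a co-chaperone, was lower by -0.32 (adjusted p = 0.011).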
